A study of Mus musculus with 25 samples.

Results

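The collagen genes were taken as every row whose symbol is Col, a number, the letter a and a number, in the FPKM columns (a read count normalized to transcript length and library size) of the 4 deposited tables of mouse pancreatic islets. That pattern found 43 genes among the 17549 rows of the largest table. By family they are 11 fibrillar collagens, 6 basement membrane collagens of the type IV family and 26 others. All 43 were listed in the table of PBS-treated islets and in the table of db islets, 41 in the table of WT islets and 30 in the high-fat diet table, which has fewer rows. Only 27 of them reached 1 FPKM in at least 2 libraries of any table.

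The study deals with BAF60C, a subunit of the BAF chromatin remodelling complex encoded by Smarcd3, and with the secreted lectin REG3B in type 2 diabetes. Each library is 1 pool of islets from at least 3 mice, and 19 libraries in 8 groups had values in the tables. The high-fat diet table holds 2 libraries labelled flox/flox, HFD and 2 labelled BcBKO, HFD, where BcBKO stands for beta-cell-specific ablation with Pdx1-cre and both groups ate a high-fat diet for 3 months. Pdx1-cre is driven by a promoter of the pancreatic lineage, so its activity is not limited to adult beta cells. The PBS table holds 2 libraries each of CTR_PBS, KO_PBS and KO_REG3B-Fc; the labels do not name the gene that is knocked out there, and the third group received a REG3B-Fc protein in place of PBS. The db table holds 2 libraries each of db_GFP and db_REG3B; all 4 are db islets, and the labels do not say how GFP or REG3B was given. The WT table holds 5 libraries of 1 group, described here without a test. The labels give no age, strain or sex for these groups. The chow-fed groups were not analysed here.

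Collagens are mostly secreted proteins whose chains wind into a triple helix. Fibrillar collagens (types I, III and V among them) assemble into the fibres of interstitial connective tissue and are made chiefly by fibroblasts and stellate cells. Type IV collagen forms the sheet-like network of basement membranes, which in islets surrounds the capillaries and the islet edge; type VI forms beaded filaments near cells, and types XV and XVIII are multiplexins that sit at basement membranes.

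Of the 43 genes, 34 had at least 1 promoter window in the RefSeq table for GRCm38.p6. The 120 bases just before the start site are printed here for 4 genes on which the results turn: Col1a2 and Col3a1 as fibrillar chains that fell in db islets, Col6a1 as a type VI chain that fell with them, and Col10a1 as a gene with a like level in all db libraries. Windows that begin inside another transcript of the gene were passed over. Capitals mark a CCAAT box (CCAAT) or a TATA box (TATAAA), searched on both strands together with the GC box (GGGCGG); none of these letters overlap another motif. Col1a2 at chr6:4505498-4505617 and Col3a1 at chr1:45311418-45311537 are read on the plus strand, Col6a1 at chr10:76726045-76726164 on the minus strand, and Col10a1 at chr10:34389861-34389980 on the plus strand.
Col1a2: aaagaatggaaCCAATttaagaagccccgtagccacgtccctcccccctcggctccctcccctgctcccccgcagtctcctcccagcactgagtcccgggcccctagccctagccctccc
Col3a1: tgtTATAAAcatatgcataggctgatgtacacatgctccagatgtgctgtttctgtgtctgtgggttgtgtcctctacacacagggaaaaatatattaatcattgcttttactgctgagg
Col6a1: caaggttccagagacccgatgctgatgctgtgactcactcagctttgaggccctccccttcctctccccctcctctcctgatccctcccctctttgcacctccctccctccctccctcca
Col10a1: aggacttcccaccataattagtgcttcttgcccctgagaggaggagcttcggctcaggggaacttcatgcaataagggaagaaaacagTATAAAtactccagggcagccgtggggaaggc
Over the 250 bases before the start, a GC box was found in 61.1% of the 36 collagen windows and in 32.7% of all 32851 windows. A CCAAT box was in 33.3% of the collagen windows and 33.8% of all, and a TATA box in 13.9% and 12.4%. These are matches of letters, with no measurement of binding.

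The positions of the genes bear on how their values are read. Col4a1 (chromosome 8, 11198423 to 11312889) and Col4a2 (chromosome 8, 11312805 to 11449287) lie head to head on opposite strands and overlap at their starts. Col4a3 and Col4a4 on chromosome 1 overlap in the same way, Col4a5 and Col4a6 on chromosome X lie 1274 bases apart, and Col3a1 (chromosome 1, 45311538 to 45349706) lies 24624 bases from Col5a2. Col1a1 lies on chromosome 11 (94936224 to 94953042) and Col1a2 on chromosome 6 (4505618 to 4541543). Of the 43 genes, 5 overlap another protein-coding gene in GENCODE vM21, each on the opposite strand: Col4a1 and Col4a2 each other, Col9a3 Tcfl5, Col10a1 Nt5dc1 and Col18a1 Slc19a1. The sources used here do not say whether counting used the strand, so reads of such pairs may not have been told apart.

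Facts that touch every result are these. The beta cell genes Ins1, Ins2, Mafa, Ucn3, Slc2a2, G6pc2 and Iapp summed to between 347000 and 941708 FPKM in each library. Smarcd3 stood at 2.57 and 2.55 FPKM in flox/flox, HFD and at 3.11 and 2.40 in the libraries labelled BcBKO, HFD, and was therefore not lower there; a whole-gene value does not show whether part of the gene is missing. Reg3b stood at 21.75 and 26.51 FPKM in db_GFP and at 10.41 and 9.98 in the libraries labelled db_REG3B, so its transcript was not higher there; the sources used here do not say whether the given REG3B would be read as this gene. In the PBS table Smarcd3 had 1.03 and 1.15 FPKM for control, 0.75 and 1.09 for KO_PBS. Reg3b had 667 and 634 FPKM for control, 1227 and 1181 for KO_PBS, and 304 and 312 for KO_REG3B-Fc. The read depth of the libraries is unknown. All differences below are on a log2(FPKM + 1) scale after dividing each library by a median factor, because in the deposited FPKM the median gene itself differed by -0.44 between KO_PBS and CTR_PBS and by 0.53 between KO_REG3B-Fc and KO_PBS. On that scale a change in a gene of low level is understated. Fold values are ratios of mean median-scaled FPKM without the added 1. With 2 libraries a group, an exact permutation test cannot give a p below 0.333, so the adjusted p-values are those of limma, which borrows the spread of all genes, and they measure only the spread between pooled samples. In such whole-islet RNA, fewer cells of a type and less RNA per cell cannot be told apart.

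In the WT pools the basement membrane chains Col4a1 and Col4a2 had the highest medians, although Col6a6 was the highest collagen in replicate 4. Col4a1, the first chain of the main type IV heterotrimer, ran from 8.34 FPKM through a median of 10.7 to 17.1. Its partner Col4a2 ran from 4.41 through 6.53 to 10.1, and the pair kept a ratio of 1.47 to 1.89 in the 5 pools. Next by median came Col6a6, a long type VI chain (2.30, median 3.83, highest 10.0), Col13a1, a transmembrane collagen (2.34, 3.35 and 5.34), and the multiplexin Col15a1 (2.10, 3.26 and 5.71). The ranges of these 3 overlap, so their order is not resolved.

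The type I and III chains had lower medians. Col3a1, the type III chain of pliable fibres, ran from 1.69 FPKM through 2.79 to 7.26. Col1a2 ran from 1.35 through 2.43 to 6.76, and Col1a1, which supplies the other chain of type I collagen, from 0.71 through 1.03 to 5.04. Replicate 5 was highest for all of these, while Col6a6 was highest in replicate 4. Summed stellate and fibroblast markers (Pdgfra, Pdgfrb, Dcn, Lum, Thy1, Des, Acta2 and Postn) ranged from 17.0 to 44.6 FPKM over the same pools, and acinar markers from 50136 to 461400; their part in the spread was not tested. Of the 41 listed genes, 24 stayed under 1 FPKM in every WT pool.

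**Figure D1:**
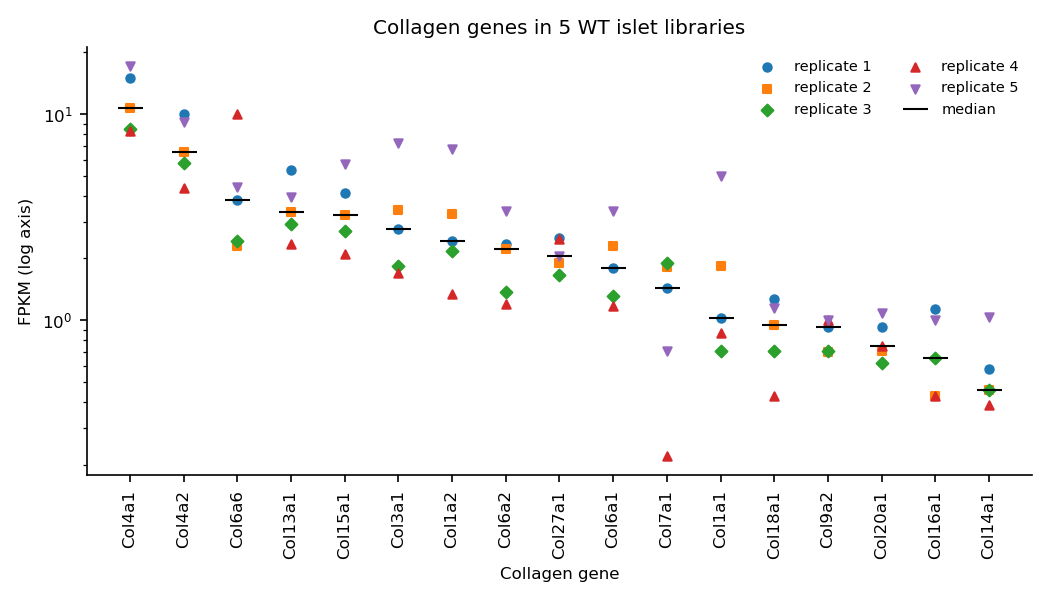
FPKM of the 17 collagen genes that reached 1 FPKM in a WT library, on a log axis, each symbol 1 of 5 pools and the bar their median. Col4a1 has the highest median at 10.7 FPKM, and replicate 5 is the highest pool for Col1a1 at 5.04 FPKM.

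No collagen passed the test between the libraries labelled BcBKO, HFD and those labelled flox/flox, HFD. Of the 30 listed, 19 passed the filter of 1 FPKM in 2 libraries, and limma called 0 of 19 higher and 0 of 19 lower, with 1 at an unadjusted p under 0.05. Over all 11560 genes tested, 0.00865% were called higher and 0% lower, so few genes of any kind passed here. The authors' deposited table called 0 of 30 collagens higher and 0 lower, against 0.109% and 0.0546% of all its genes. The median log2 difference of the 19 was 0.13, against 0.0028 for all genes.

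The 2 flox/flox, HFD pools themselves differed widely in interstitial collagens. Col1a1 stood at 1.94 and 7.70 FPKM in them and at 3.29 and 6.10 in BcBKO, HFD. Col3a1 stood at 5.14 and 20.95 against 8.55 and 17.99, and Col1a2 at 3.04 and 9.66 against 4.70 and 8.99. In each case both BcBKO values fell between those of the flox/flox pools. The log2 difference of Col1a1 was 0.053 ± 0.58 (SE, n = 2 and 2, adjusted p = 0.9997), and it was -0.76 without flox/flox, HFD replicate 1 and 0.87 without replicate 2. Summed stellate and fibroblast markers were 30.2 and 56.2 FPKM for flox/flox, 47.3 and 73.4 for BcBKO libraries; their part was not tested.

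Basement membrane chains gave no call on the high-fat diet either. Col4a1 stood at 20.76 and 27.34 FPKM with flox/flox, at 27.68 and 35.87 with BcBKO, a log2 difference of 0.30 ± 0.21 (SE, adjusted p = 0.9997). Col4a2 stood at 8.25 and 11.80 against 10.82 and 18.21. With 1 library left out the difference ranged from 0.077 to 0.53 for Col4a1 and from 0.027 to 0.75 for Col4a2. The groups overlap for both chains after scaling. The multiplexin Col15a1 was at 10.55 and 11.50 against 9.13 and 13.29, and Col18a1, the precursor of endostatin, at 0.71 and 1.53 against 1.13 and 1.76. Col6a1 stood at 2.60 and 5.80 against 3.87 and 5.57 FPKM, Col6a2 at 2.37 and 5.51 against 4.01 and 6.06, and Col6a3 at 0.46 and 1.98 against 1.01 and 1.22. For 3 genes, Col6a6, Col16a1 and Col27a1, both scaled BcBKO values lay above both flox/flox values, and for 0 below; over all genes such separation occurred upwards in 14.1% and downwards in 13.2%.

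In knockout islets treated with PBS, collagens stood higher than in control islets, fibrillar chains most. After median scaling, 13 of the 18 tested collagens rose and 0 fell, against 25.0% and 19.6% of all 11789 genes. The median log2 difference of the 18 was 0.58, and 0.0016 for all genes. Of the 18, 4 (Col9a2, Col11a2, Col14a1 and Col20a1) had a group wholly under 1 FPKM, so their passing the filter leaned on the other groups. On the deposited FPKM scale the split was 10 higher and 5 lower. In the authors' deposited table, made with its own normalization, 20 of 43 collagens were higher and 0 lower, against 14.7% and 11.2% of its genes.

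Both type I chains and type III moved furthest. For Col1a1 the CTR_PBS libraries had 1.07 and 0.96 FPKM, the KO_PBS libraries 5.30 and 5.87, and the KO_REG3B-Fc libraries 2.50 and 2.20. Col1a2 stood at 2.41 and 2.60, at 7.54 and 8.11, and at 4.64 and 4.06 in the same order. Col3a1 stood at 3.15 and 3.63, at 10.57 and 11.52, and at 5.92 in both. For all 3 genes the groups did not overlap: knockout with PBS was highest, control lowest and the REG3B-Fc group in between. Against control, Col1a1 was 7.97-fold higher in KO_PBS (log2 difference 2.12 ± 0.072, SE, adjusted p = 2.24e-07), Col3a1 4.72-fold (1.93 ± 0.073) and Col1a2 4.52-fold (1.78 ± 0.069). These SE do not cover the spread seen in other pools of the series. Among the WT pools Col1a1 ran from 0.71 to 5.04 FPKM, set beside these values without a test.

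Of the other fibrillar chains, Col27a1, a fibrillar chain of cartilage, had 3.60 and 3.49 FPKM in control libraries, 4.04 and 4.12 under KO_PBS and 6.34 and 5.91 under KO_REG3B-Fc. It rose by 0.59 ± 0.053 (log2, SE) against control. The type V chains, which set the diameter of type I fibres, stayed under 1 FPKM in all 6 libraries and were not tested here. Col5a2, the highest of them, had 0.45 and 0.37 FPKM in control, 0.92 and 0.95 in KO_PBS, then 0.59 in both KO_REG3B-Fc libraries. The authors' deposited table called each type V chain higher in KO_PBS than in control. Its log2 folds were 2.04 for Col5a1, 1.66 for Col5a2 and 1.08 for Col5a3.

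The type IV chains depended on the scale. Col4a1 stood at 16.41 and 15.99 FPKM in control islets, had 13.67 and 14.04 in KO_PBS, and stood at 17.51 and 17.78 with REG3B-Fc, so that the deposited values were lowest in the knockout. Col4a2 stood at 9.45 and 10.03, 8.36 and 8.70, and 10.54 and 11.17. Col4a1 rose by 0.29 ± 0.045 after median scaling and was lower by -0.21 in deposited FPKM, each past the threshold; Col4a2 rose by 0.31 ± 0.060 and was at -0.17 in deposited FPKM, again each past it. In the authors' deposited table their log2 folds were 0.27 and 0.30 (DESeq2 adjusted p = 4.84e-05 and 0.000498). Both were thus called higher there, the direction found after median scaling. A ratio of collagen families within a library does not depend on that scale and is given further on.

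Type VI and the multiplexins lay between. Col6a1 stood at 2.24 FPKM in both CTR_PBS libraries, at 4.02 and 4.26 with the knockout and PBS, and at 3.43 and 2.96 with REG3B-Fc. Col6a2 stood at 2.32 and 2.09, 4.11 and 4.09, and 3.30 and 2.56, and each of the 2 chains rose by 1.09 on the log2 scale (SE 0.066 and 0.082) in KO_PBS. Col6a3, their partner, stayed under 1 FPKM (0.39 and 0.38, 0.57 and 0.72, 0.53 and 0.47) and was not tested here. The authors' deposited table called it higher in KO_PBS than in control, with a log2 fold of 1.27. Col6a6 behaved otherwise: it stood at 6.10 and 6.22 FPKM in control and 4.58 and 4.18 in KO_PBS, with a scaled log2 difference of 0.035 ± 0.056 that did not pass and one of -0.41 in deposited FPKM that did.

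Col18a1 stood at 1.02 and 0.96 FPKM in control islets, at 1.51 and 1.57 for KO_PBS, at 1.23 and 1.15 with REG3B-Fc, and it rose by 0.67 ± 0.063 against control. Col15a1 stood at 4.37 and 4.68, 4.25 and 4.30, and 4.66 and 4.75; it rose by 0.37 ± 0.058 after scaling but was at -0.066 and not past the threshold in deposited FPKM. Col7a1, the chain of anchoring fibrils, stood at 1.48 and 1.36 in control and 2.12 and 2.29 in KO_PBS and rose by 0.77 ± 0.068. Col14a1, which coats fibril surfaces, stood at 0.63 and 0.77 in control and 1.56 and 1.48 in KO_PBS and rose by 0.87 ± 0.070.

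**Figure D2:**
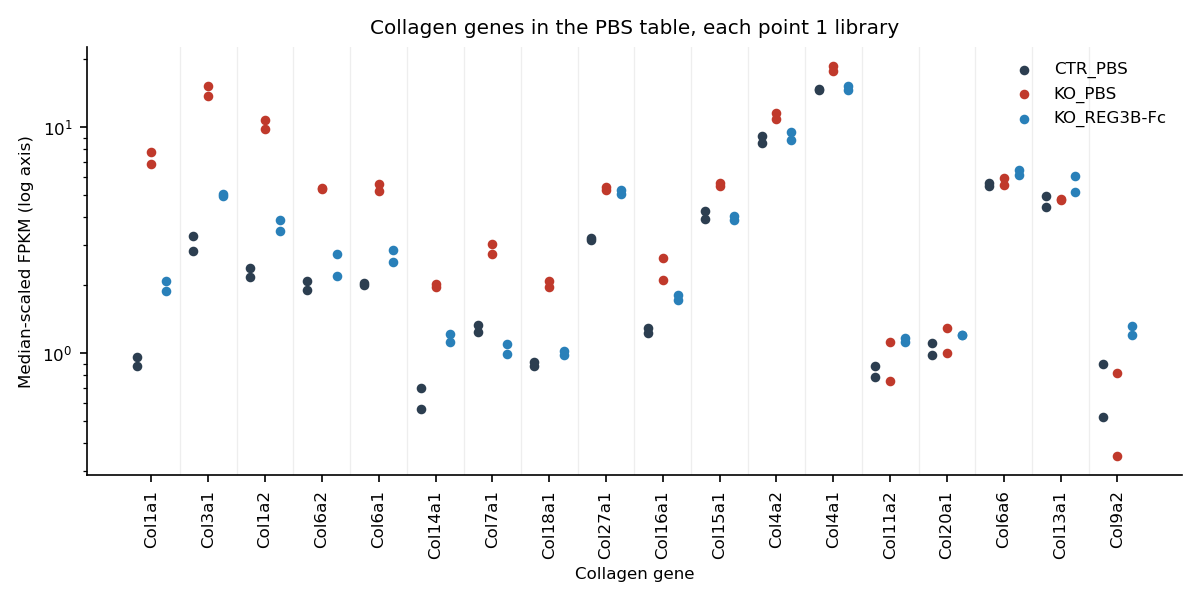
Median-scaled FPKM on a log axis of the 18 tested collagens in the 6 libraries of the PBS table, each point 1 library, ordered by the difference between KO_PBS and CTR_PBS. Both KO_PBS points of Col1a1, Col3a1 and Col1a2 lie above all others of the gene; Col4a1 and Col4a2, higher in KO_PBS on this scale, are lower there in deposited FPKM.

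In REG3B-Fc treated knockout islets most of these genes stood lower than in PBS-treated knockout islets. Of the 18, 12 fell and 1 rose after scaling, against 24.8% and 20.0% of all genes. On the deposited scale 7 fell and 8 rose. The authors' deposited table had 15 of 42 lower and 1 higher, against 13.9% and 10.2% of its genes. This comparison shares the 2 KO_PBS libraries with the one before, so the reversal of direction between the pair of contrasts is in part built in.

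Col1a1 was 3.69-fold lower with REG3B-Fc (log2 difference -1.48 ± 0.072, adjusted p = 1.46e-06), Col3a1 2.90-fold (-1.37 ± 0.073) and Col1a2 2.80-fold (-1.27 ± 0.069). Col7a1 stood at 1.32 and 1.16 FPKM with REG3B-Fc and fell by 0.93 on the log2 scale. Col6a2 fell by 0.88, Col6a1 by 0.80, Col18a1 by 0.59 and Col14a1 by 0.46. In deposited FPKM each of these 8 had a negative difference too, past the threshold for all but Col14a1 (-0.079, adjusted p = 0.31).

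The 1 gene that rose was Col9a2, a chain that decorates cartilage fibrils. It stood at 0.27 and 0.62 FPKM in KO_PBS and at 1.58 and 1.41 with REG3B-Fc, with 0.58 and 0.98 in CTR_PBS. Its log2 difference from KO_PBS was 0.53 ± 0.15 (adjusted p = 0.020). All values are low, and the gene passed the filter only through the REG3B-Fc libraries, where it is high. The call was lost without KO_PBS replicate 1 (0.32, adjusted p = 0.092) and without the filter (adjusted p = 0.061), and without KO_REG3B-Fc replicate 2 the gene no longer passed the filter. Col27a1 did not differ past the threshold after scaling (-0.041 ± 0.053) and was called higher in deposited FPKM, where its log2 difference was 0.49. Col4a1 fell by 0.27 and Col4a2 by 0.26 after scaling, while both were called higher in deposited FPKM, by 0.33 and 0.31. The authors' deposited table called both lower, with log2 folds of -0.26 for each (DESeq2 adjusted p = 0.00023 for Col4a1 and 0.0041 for Col4a2).

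Treated knockout islets did not stand level with control islets in every collagen. KO_REG3B-Fc against CTR_PBS gave 6 of 18 higher and 0 lower, against 5.59% and 5.10% of all genes, with a median of 0.22 for the 18 and 0.00078 for all genes. On the deposited scale 11 were higher. With any 1 library of these 2 groups left out 4 to 5 were higher: Col6a1 lost its call each time, and Col14a1 did without CTR_PBS replicate 1 or KO_REG3B-Fc replicate 2. Col6a1 also missed the threshold with the replicate block (adjusted p = 0.052) and without the filter (0.084). Col1a1 was 2.16-fold above control (0.64 ± 0.072, adjusted p = 0.0013), Col3a1 1.63-fold (0.56 ± 0.073), Col1a2 1.62-fold (0.51 ± 0.069) and Col27a1 1.61-fold (0.55 ± 0.053). Col14a1 was higher by 0.41 and Col6a1 by 0.29 on the log2 scale. Type IV chains showed no difference past the threshold, with 0.022 ± 0.045 for Col4a1 and 0.051 ± 0.060 for Col4a2. The 3 contrasts of this table share their libraries, so each gene's 3 differences are not independent.

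Markers of several other cell types moved with the collagens in this table, while those of others did not. Summed stellate and fibroblast markers were 18.2 and 18.6 FPKM for control, 37.9 and 40.4 for KO_PBS, 26.3 and 27.5 with REG3B-Fc. Against control, 6 of 7 tested markers rose in KO_PBS (Dcn by 1.88, Acta2 by 1.44 and Postn by 1.38 on the log2 scale). The shares of all genes in that comparison were 25.0% higher and 19.6% lower. Of the 7 tested immune markers 7 rose, their sum going from 18.0 to 18.5 FPKM in CTR_PBS to 146 to 151 in KO_PBS, and of the 10 acinar markers 10 rose, from 200449 to 204185 to 369586 to 383773 FPKM. Beta cell markers fell in 5 of 7. With REG3B-Fc against KO_PBS, 6 of 7 stellate and fibroblast markers, 7 of 7 immune markers and 10 of 10 acinar markers fell. The immune markers Ms4a1 and Cd79b reached 1 FPKM only in KO_PBS, so the filter set their direction in both comparisons. The shares of all genes there were 20.0% higher and 24.8% lower. The immune sum went to 25.6 and 26.0 FPKM and the acinar sum to between 171706 and 172938. Endothelial cells lay down much type IV collagen. In KO_PBS against control their markers gave 5 higher and 2 lower of 8 after scaling, but 0 higher and 7 lower in deposited FPKM. In KO_REG3B-Fc against KO_PBS they gave 2 higher and 4 lower of 8 after scaling, and 8 higher in deposited FPKM. In KO_PBS against control 3 duct markers rose and 1 fell of 5 tested, and 1 pericyte marker rose and 2 fell of 4. The duct marker Sox9 passed the filter only through KO_PBS and the pericyte marker Cspg4 only through CTR_PBS. In deposited FPKM 0 pericyte markers were higher and 3 lower. After scaling 0 of 2 Schwann markers and 0 of 1 mesothelial markers were called. With REG3B-Fc against KO_PBS 1 duct marker rose and 3 fell, 1 pericyte marker fell, and the mesothelial marker rose by 0.38. Of 4 adipocyte markers only Lep was listed, at 0.01 FPKM or less, and 0 were tested, so these cells were not assessed. The part of these cells in the collagen differences was not tested.

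The genes that build, bind and cut collagen were counted in the same way, beside the 25.0% of all genes called higher and 19.6% called lower in KO_PBS against control. Of 18 tested genes of collagen modification and secretion, 5 rose and 4 fell, near those shares, and in deposited FPKM 3 were higher and 14 lower. Pcolce, which speeds removal of the procollagen C-terminus, rose by 1.40, Serpinh1, the collagen chaperone HSP47, by 0.93 and Ppib, a prolyl isomerase, by 0.81. With REG3B-Fc against KO_PBS, 3 of the 18 rose and 6 fell (20.0% and 24.8% of all genes), while in deposited FPKM 15 were higher and 2 lower. Pcolce fell by 1.16, Ppib by 0.95 and Serpinh1 by 0.74. Of 3 tested collagen receptors, the integrin chains Itgb1 (0.18) and Itga1 (0.28) rose in KO_PBS after scaling. The discoidin receptor Ddr1 fell by 0.17. In deposited FPKM 0 of the 3 were called higher and 2 lower. There Ddr1 had 34.48 and 36.76 FPKM in control and 21.33 and 22.29 in KO_PBS. Itgb1 was at -0.34, and Itga1 at -0.051 with overlapping groups. Of 5 tested genes of collagen degradation 4 rose, among them the proteases Mmp2 (1.04) and Mmp14 (0.86) and the inhibitor Timp2 (0.79). Mmp2 reached 1 FPKM only in KO_PBS, so the filter set its direction. Mmp14 was under 1 FPKM in the control libraries. Of 11 laminins, nidogens and proteoglycans of the basement membrane 5 rose and 0 fell after scaling, with Lamb3, a laminin chain of epithelia, at 0.67. Lamb3 too reached 1 FPKM only in KO_PBS. In deposited FPKM 1 of the 11 was higher and 7 were lower.

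Collagen transcripts were most abundant in db islets, and most tested ones stood lower in the libraries labelled db_REG3B, where Reg3b itself was not higher, than in the db_GFP libraries. Of the 27 tested collagens 23 fell and 1 rose, against 26.7% and 18.6% of all 12507 genes. The median log2 difference was -1.17 for the 27 and -0.0083 for all genes. Of the 27, 3 (Col7a1, Col12a1 and Col25a1) passed the filter only through db_GFP and so had to be lower in the other group. On the deposited scale the split was the same, 23 lower and 1 higher. The authors' deposited table had 26 of 43 lower and 1 higher, against 15.1% and 12.3% of its genes.

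Fibrillar chains were the most abundant collagens here. Col3a1 stood at 457 and 452 FPKM in db_GFP and at 84.76 and 91.39 in db_REG3B. Col1a1 stood at 381 and 372 against 58.25 and 62.05, and Col1a2 at 331 and 328 against 51.61 and 54.16. The replicates of each group lay close together and the groups were far apart. Col1a1 was 6.03-fold lower in db_REG3B (log2 difference -2.57 ± 0.037, SE, n = 2 and 2, adjusted p = 2.12e-08), Col1a2 5.99-fold (-2.56 ± 0.035) and Col3a1 4.97-fold (-2.30 ± 0.037).

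The type V chains, which were under 2 FPKM in each other table, were measurable in db islets. Col5a2 stood at 88.03 and 86.80 FPKM in db_GFP and 20.01 and 22.44 in db_REG3B, and fell by 1.94 on the log2 scale. Col5a1 stood at 37.77 and 35.82 against 5.64 and 5.72, and fell by 2.45 ± 0.054. Col5a3 stood at 30.01 and 28.39 against 5.25 and 5.57, and fell by 2.19 ± 0.057. All 3 type V chains were thus several-fold lower, with no overlap. The remaining tested fibrillar chains moved little: Col27a1 stood at 8.42 and 9.13 against 6.41 and 6.36 FPKM and fell by 0.35, and Col11a2, a chain typical of cartilage, stood at 3.87 and 4.19 against 3.65 and 3.73, with -0.056 ± 0.076, which did not pass. Col2a1, Col11a1 and Col24a1 stayed at or under 0.23 FPKM.

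Basement membrane chains fell less. Col4a1 stood at 64.98 and 64.15 FPKM in db_GFP and 29.48 and 32.48 in db_REG3B, 2.01-fold lower (-0.98 ± 0.047). Col4a2 stood at 43.02 and 41.25 against 16.97 and 17.96, 2.32-fold lower (-1.17 ± 0.047). Both groups were cleanly separated. The 4 other type IV chains, which form the specialised networks of kidney, lung and smooth muscle, stayed under 1 FPKM in every library that lists them (Col4a6 is not listed in the high-fat diet table).

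Type VI chains moved like the fibrillar ones except for 1 member. Col6a1 stood at 106 and 102 FPKM in db_GFP and at 19.20 and 19.28 in db_REG3B, and fell by 2.32. Col6a2 stood at 104 and 102 against 18.19 and 19.29, and fell by 2.34. Col6a3 stood at 31.52 and 30.00 against 5.69 and 6.16, and fell by 2.15. In the opposite direction Col6a6 stood at 9.44 and 8.91 against 14.26 and 16.13, and rose by 0.72 ± 0.066 (adjusted p = 8.69e-05), the 1 collagen that did. Col6a6 per Col6a1 FPKM was 0.089 and 0.087 in db_GFP and 0.74 and 0.84 in db_REG3B, whereas the ratio of Col6a1 to Col6a2 stayed between 1.00 and 1.06 in all 4.

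Among the other families Col15a1 stood at 55.19 and 51.95 FPKM in db_GFP and at 14.33 and 15.78 in db_REG3B, and fell by 1.71. Col18a1 stood at 42.80 and 41.12 against 15.37 and 17.36, and fell by 1.26. Col8a1, a short-chain collagen of vessel walls, stood at 11.80 and 11.92 against 3.16 and 3.26, and fell by 1.56. Col16a1 fell by 1.39, Col14a1 by 0.95 and Col13a1 by 0.38. The 2 remaining genes that did not pass were Col20a1 (2.34 and 2.42 against 2.53 and 2.90) and Col10a1.

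Col10a1, the type X collagen of hypertrophic cartilage, stood apart in another way. It stood at 15.11 and 15.13 FPKM in db_GFP and at 14.66 and 14.22 in db_REG3B, with a log2 difference of -0.0100 ± 0.055. In the WT and PBS tables it was at or under 0.03 FPKM in all libraries. The gene overlaps Nt5dc1 on the opposite strand, and whether the reads are from Col10a1 itself was not tested. Each table was normalized on its own, so levels from different tables are set side by side without a test.

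**Figure D3:**
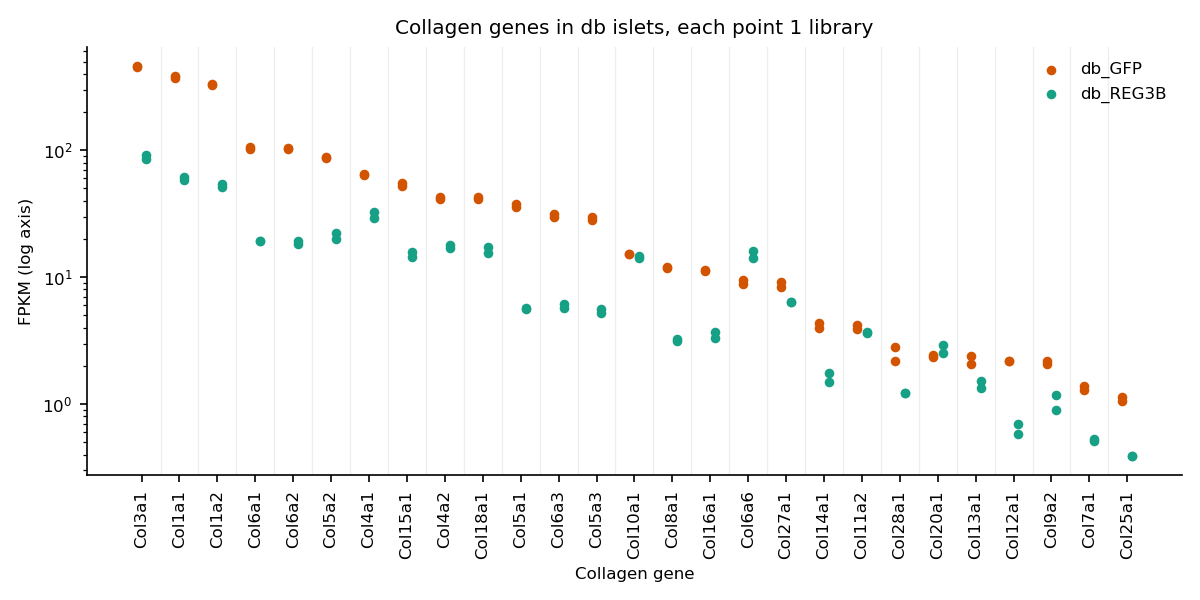
FPKM on a log axis of the 27 tested collagens in the 4 db libraries, each point 1 library, ordered by their level in db_GFP. Col3a1, Col1a1 and Col1a2 stand at 328 FPKM or more in db_GFP and at 91.39 or less in db_REG3B, Col10a1 near 15 in all 4, and Col6a6 is higher in db_REG3B.

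Most genes of the collagen pathway lists were lower in db_REG3B, with exceptions among the enzymes. Over all genes 26.7% were called lower and 18.6% higher. Of 24 tested genes of modification and secretion 18 fell and 4 rose, the rises being near the share of all genes. Serpinh1 stood at 137 and 134 FPKM in db_GFP and 39.33 and 38.81 in db_REG3B and fell by 1.72. Pcolce fell by 1.88 and the crosslinking oxidase Loxl1 by 1.72. The 4 that rose were the prolyl hydroxylase subunits P4ha1 (0.61), P4ha2 (0.31) and P4hb (0.21), which stabilise the helix, and Mia3 (0.37), which helps load collagen for export; they are named after their values were seen. All 7 tested receptors fell, led by the endocytic collagen receptor Mrc2 at -1.92. All 13 tested basement membrane partners fell, among them Lamb1 at -1.49 and the proteoglycan Hspg2 at -1.64. All 8 tested genes of degradation fell, with Timp1, an inhibitor of matrix proteases, at -3.07, the gelatinase Mmp9 at -2.67 and Mmp14 at -1.82. Ddr2, Itga1, Lair1, Lama2, Lama3, Lamb3, Mmp13 and P4ha3 reached 1 FPKM only in db_GFP. The filter therefore set their direction, and they add no support to the counts of lower genes. These lists were drawn up with earlier results of the data known.

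Cell type markers moved as well, where 26.7% of all genes were called lower and 18.6% higher. All 8 stellate and fibroblast markers fell, their sum being 340 to 342 FPKM in db_GFP and 73.6 to 79.7 in db_REG3B. All 8 endothelial markers fell (101 in both db_GFP libraries, 51.8 and 55.1 in db_REG3B). Of 5 immune markers 4 fell and 1 rose (519 to 528 against 230 to 238 for their sum). The 1 that rose, Cd79a, reached 1 FPKM only in db_REG3B, and the stellate marker Pdgfra only in db_GFP. The filter set the direction of these genes. Beta cell markers rose in 6 of 7, from 379108 to 384668 up to 697863 to 718952 FPKM. Acinar markers were low in both groups (892 to 895 and 514 to 537), with 7 of 10 called lower and 1 higher. Of 5 tested duct markers 4 fell, of 5 pericyte markers 3 and of 4 Schwann markers 3, with 0 called higher in each list. Among them Sox9, Sox10 and Cdh19 reached 1 FPKM only in db_GFP, so the filter set their direction. The 1 tested mesothelial marker rose by 1.21. How much of the collagen difference goes with these markers was not tested.

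**Figure D4:**
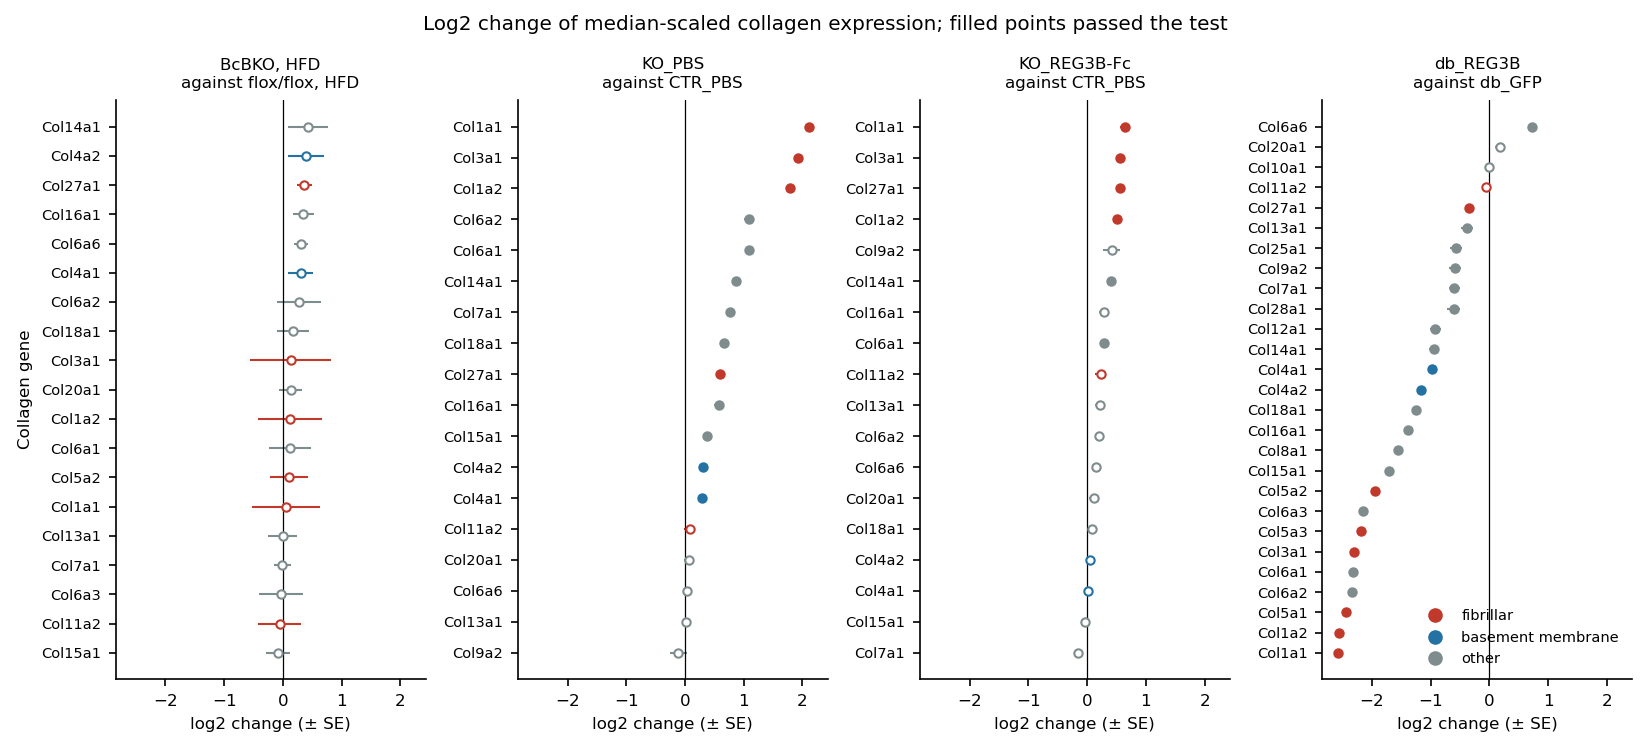
Log2 difference of median-scaled collagen expression with its SE, 1 panel for each of 4 comparisons, coloured by family, filled where limma called the gene. Fibrillar chains lie at the far ends in KO_PBS against CTR_PBS (Col1a1 at 2.12) and in db_REG3B against db_GFP (Col1a1 at -2.57), and no point is filled in the high-fat diet panel; Col4a1 and Col4a2 change sign in KO_PBS in deposited FPKM.

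The families were also compared within each library by the ratio of summed fibrillar to summed basement membrane FPKM, which no scaling of the library alters. Control libraries had ratios of 0.449 and 0.466, KO_PBS libraries 1.31 and 1.38, and KO_REG3B-Fc libraries 0.759 and 0.689, so the 3 groups did not overlap. The ratio was 12.3 and 12.4 in db_GFP and 5.04 and 4.96 in db_REG3B, again without overlap. On the high-fat diet the flox/flox libraries had 0.688 and 1.17, the BcBKO libraries 0.752 and 0.813, which overlap, and it ran from 0.406 to 0.869 in WT. With 2 libraries a group the exact permutation test of such a ratio cannot go below 0.333.

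Put as shares of all collagen FPKM, fibrillar chains made up 72.1% and 72.5% in db_GFP, 58.9% and 58.7% in db_REG3B, 35.8% and 37.1% in KO_PBS and 18.1% and 18.4% in CTR_PBS. All collagens together came to 1854 and 1816 FPKM in db_GFP, 400 and 428 in db_REG3B, 83.3 and 87.6 in KO_PBS, 87.4 and 86.5 in KO_REG3B-Fc, and 66.4 and 68.0 in CTR_PBS. In deposited FPKM the 2 knockout groups therefore had like totals with a different make-up. Col1a1 and Col1a2, which join in type I collagen, had FPKM ratios of 1.15 and 1.14 in db_GFP, 1.13 and 1.15 in db_REG3B, 0.703 and 0.724 in KO_PBS and 0.444 and 0.369 in CTR_PBS. The ratio was below 1 in all WT, PBS and high-fat diet libraries and above 1 in the db libraries.

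**Figure D5:**
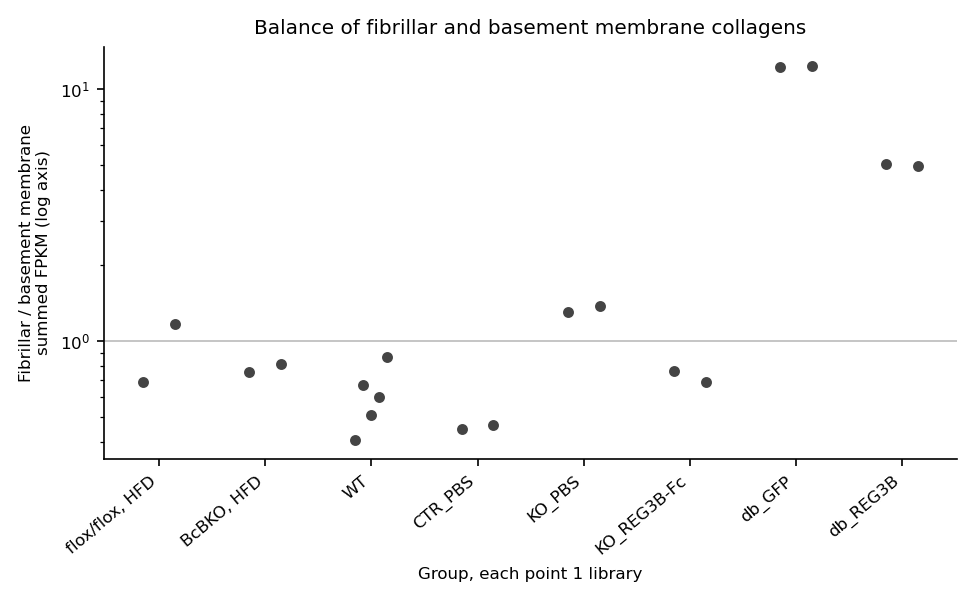
Ratio of summed fibrillar to summed basement membrane collagen FPKM on a log axis, each point 1 library, by group. The db_GFP libraries lie at 12.3 and 12.4, and in the PBS table KO_PBS (1.31 and 1.38) lies above KO_REG3B-Fc and CTR_PBS.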

How the data were processed

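Islet RNA, 1 pool per library, was sequenced in paired-end mode on a BGISEQ-500 per the labels' protocols, with GRCm38.p6 named in the submitters' processing notes; the aligner and counter are not given in the sources used here. The authors deposited FPKM for 19 libraries in 4 tables. The high-fat diet table also holds TPM by the authors, which was not used. Log2 fold changes and p-values by the authors were deposited for 4 comparisons, named as DESeq2 output in 2 of the tables, per the file headers; they are quoted only where named. Repeated gene IDs were used once.

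Each FPKM column was divided by its median ratio to the table's geometric mean library. Genes with at least 1 deposited FPKM in 2 libraries were tested on log2(FPKM + 1) with limma (version 3.58.1, R 4.3.3; moderated by empirical Bayes with a mean trend, two-sided, Benjamini-Hochberg over all genes of the table, threshold 0.05). The 3 groups of the PBS table shared 1 fit. The script was tested on simulated data. Depth is unknown, so no counting interval can be given. Alternatives were deposited FPKM, a pseudocount of 0.1, no filter, a replicate block, leaving out each library and, in the PBS table, only the 2 groups compared. Genes named in full are Col1a1, Col1a2, Col3a1, Col4a1, Col4a2, Col6a1 to Col6a3, Col15a1 and Col18a1, plus up to 8 called genes in each direction with the largest change. Of other lists, up to 3 called genes by smallest p were named. Members, lists and rules were chosen with earlier results of these data known; a few other collagens named to complete a family were picked after their values were seen.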

Additional observations from a re-analysis of the deposited data

Results flagged for a closer look

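Of the 17 collagens with a WT library at 1 FPKM or more, 2 had 1 pool far from the other 4. Col1a1 stood at 5.04 FPKM in WT replicate 5, where the other pools reached at most 1.84; the gap to the nearest pool was 0.739 of the whole range, above the 95% critical value of 0.71 for 5 samples. Col6a6 stood at 10.02 FPKM in WT replicate 4, where the next pool had 4.45, with a gap of 0.722 of the range. After median scaling 1 of the 17, Col6a6 (0.792), was still past that value, while Col1a1 in replicate 5 was at 0.584. About 1 in 20 groups is marked in this way by chance.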

How the results depend on the processing

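In deposited FPKM the count of collagens higher in KO_PBS against CTR_PBS went from 13 to 10 and that lower from 0 to 5; in KO_REG3B-Fc against KO_PBS 8 were higher and 7 lower, and against CTR_PBS 11 were higher. Among collagens named in full, or called on either scale in the comparison, signs turned in deposited FPKM for these genes. Sign changes of the remaining collagens are not listed. Against CTR_PBS in KO_PBS: Col13a1 -0.41, Col20a1 -0.20, Col6a6 -0.41, Col4a2 -0.17, Col4a1 -0.21 and Col15a1 -0.066. With REG3B-Fc against KO_PBS: Col27a1 0.49, Col4a2 0.31, Col16a1 0.14, Col4a1 0.33 and Col15a1 0.11. With REG3B-Fc against CTR_PBS Col15a1 was at 0.047. On the high-fat diet Col15a1 was at 0.0019 and Col6a3 at 0.018, and Col6a3 at 0.084 with a pseudocount of 0.1. Without a filter, 25 collagens were higher in KO_PBS and 0 in KO_REG3B-Fc against KO_PBS. No label says that replicate numbers pair the samples; same-numbered differences correlated at 0.67 on the high-fat diet and between -0.051 and 0.047 elsewhere, and with the replicate block 2 collagens were higher in KO_REG3B-Fc against KO_PBS. Other counts stayed within 1.5 times under the block.

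Leaving out 1 library at a time (a lone library being taken to vary like the others) gave 0 to 2 collagens higher in KO_REG3B-Fc against KO_PBS: 0 without KO_PBS replicate 1 or KO_REG3B-Fc replicate 2, and 2 without KO_PBS replicate 2. On the high-fat diet, where 0 passed throughout, the log2 difference ranged for Col1a1 from -0.76 to 0.87, Col1a2 from -0.61 to 0.86, Col3a1 from -0.82 to 1.09, Col6a1 from -0.37 to 0.61, Col6a2 from -0.24 to 0.78, Col6a3 from -0.57 to 0.51, Col18a1 from -0.14 to 0.48 and Col15a1 from -0.34 to 0.19. In KO_PBS against CTR_PBS it ranged for Col13a1 from -0.047 to 0.088, Col20a1 from -0.029 to 0.17 and Col6a6 from -0.010 to 0.080; for Col20a1 with REG3B-Fc against KO_PBS from -0.051 to 0.14; and against CTR_PBS for Col4a2 from -0.0016 to 0.11, Col4a1 from -0.0036 to 0.051 and Col15a1 from -0.084 to 0.013. None of these passed the threshold in the full data. Of the 24 calls in db islets, 24 were kept in deposited FPKM. With 1 library left out the count lower there went from 23 to between 19 and 23; Col13a1 lost its call without db_GFP replicate 1 or db_REG3B replicate 1, and the other losses were genes that no longer passed the filter. The cause of these shifts was not tested. Depth is unknown, so collagens under 1 FPKM say little.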
